A study of Mus musculus with 28 samples.

Results

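Expression of 10 genes of glucose uptake, glycolysis and glycogen turnover was followed in muscle of obese, diet-fed mice that received aspirin and trimetazidine together or solvent alone. The genes were taken by symbol: Slc2a4, Hk2, Pfkm, Aldoa, Pgam2, Eno3, Pkm, Ldha, Pygm and Gys1. In the muscle table at 40 d, 11 of 54189 rows carry these 10 symbols, because Aldoa names a pair of neighbouring gene models, and 11 of 54501 rows carry them in the table at 24 h. Of the 10 symbols, 9 passed the filter on low values (1 FPKM or more in 6 or more of 12 muscles), and Pygm did not.

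Working muscle takes glucose from blood through the transporter encoded by Slc2a4 (GLUT4) and traps it as glucose 6-phosphate with hexokinase. The sugar is then either stored as glycogen or split through glycolysis to pyruvate and lactate, and glycogen phosphorylase returns stored sugar to the same route. Fast, glycolytic fibres carry muscle forms of several of these enzymes (Pfkm, Pgam2, Eno3), while most other tissues use other isoforms of the same steps. Leptin-deficient mice become obese and insulin resistant, a state in which muscle takes up and stores less glucose.

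Every mouse was a Lepob/Lepob C57BL/6J male, so vehicle mice, like combination mice, lacked functional leptin. The study's 30 mice started the AMLN diet, which gives 40% of calories as fat and 20% as fructose with 2% cholesterol by weight, at 4 weeks of age and ate it for 20 weeks to produce steatohepatitis, and they stayed on it during treatment. Combination mice were injected intraperitoneally each day with 3.0 mg/kg aspirin (acetylsalicylate) plus 5.0 mg/kg trimetazidine, and vehicle mice with the solvent. The question behind the series was whether giving both drugs improves metabolic disease. At 40 d there were 6 combination muscles (mice 4_5 and 5_1 to 5_5) and 6 vehicle muscles (mice 2_1, 2_3, 2_4, 2_5, 3_2 and 6_1), and at 24 h there was 1 muscle for each treatment. By the labels, the 24 h muscles were taken 24 h after injection, and the 40 d muscles after treatment for 40 d. The labels do not say which muscle was taken, and no first digit of a mouse number occurs in both treatments, so whatever that digit stands for cannot be told apart from the treatment.

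The libraries at 40 d held 16.1 to 19.9 M reads on genes, and mitochondrial genes took 5.1% to 10.53% of them. Muscle markers were abundant: 12 of 13 fast fibre genes passed the filter, and the summed level of the 13 was 41367 to 58890 FPKM in combination muscles and 39005 to 62620 FPKM in vehicle muscles. Adipocyte genes were present too, with 8 of 8 passing and sums of 315 to 2354 FPKM in combination muscles and 562 to 1800 FPKM in vehicle muscles. Fast fibre genes were higher with the combination in 6 and lower in 6, adipocyte genes higher in 4 and lower in 4. Red cell genes were higher in 5 of 5 (median log2 fold change 0.90) and fibroblast genes lower in 5 of 5 (−0.37). Of these lists 0 genes were called by limma at an adjusted p under 0.05. In whole muscle, fewer cells of a type and less RNA per cell cannot be told apart.

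A few muscles stood apart on the members before any comparison. Vehicle mouse 6_1 had the highest level of its group in 9 of 9 members and the highest of all 12 muscles in 7, with a median deviation of 0.43 (log2) from its group's mean. Its library also had the largest summed FPKM over all genes, 470508, where the other 11 muscles lay between 336602 and 419170. Combination mouse 5_2 was highest of its group in 7 of 9 members. Combination mouse 5_5 was the lowest of all 12 in 4 members (Slc2a4, Hk2, Pfkm and Gys1), and it had the highest adipocyte sum (2354 FPKM) and the lowest mitochondrial share (5.1%).

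The entry of glucose came first in the pathway and showed wide differences in level between its genes. Slc2a4 (ENSMUSG00000018566, GRCm38 chr11:69942539-69948188, minus strand), the insulin-responsive transporter, ranged from 138 to 237 FPKM with a median of 208 in combination muscles and from 180 to 230 FPKM with a median of 191 in vehicle muscles. Hk2 (chr6:82725025-82774454, minus strand), the main hexokinase of insulin-sensitive muscle, ranged from 37.8 to 75 FPKM with a median of 57.5 in combination muscles and from 52.5 to 71.3 FPKM with a median of 61.0 in vehicle muscles. In both genes the lowest combination muscle was 5_5, below every vehicle muscle, and the groups otherwise overlapped.

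Pfkm, the muscle phosphofructokinase that commits sugar to glycolysis (chr15:98092589-98132451, plus strand), lay between 701 and 1019 FPKM with a median of 877 in combination muscles. In vehicle muscles it lay between 806 and 1152 FPKM with a median of 888. Its lowest muscle was again 5_5, and its highest was 6_1. Of its exonic length, 10.2% is shared with a predicted gene (Gm26513) on the same strand, so some reads could belong to either.

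Among the genes from aldolase to lactate dehydrogenase were the 3 most abundant members, Aldoa, Eno3 and Pgam2. Aldoa (chr7:126795234-126800751, minus strand), which splits fructose 1,6-bisphosphate, averaged 4650 ± 390 FPKM in combination muscles and 4756 ± 1031 FPKM in vehicle muscles (SD, n = 6 each). The wider vehicle spread came with mouse 6_1, which had 6661 FPKM, the highest value of any member in any muscle. Eno3 (beta-enolase, chr11:70657202-70662513, plus strand) averaged 3088 ± 484 FPKM in combination and 3158 ± 755 FPKM in vehicle muscles. Pgam2 (muscle phosphoglycerate mutase, chr11:5801640-5803733, minus strand) averaged 1839 ± 323 FPKM in combination and 1983 ± 476 FPKM in vehicle muscles. For both enzymes the top muscle was 5_2 for the combination and 6_1 for vehicle. These lay well above the remaining 5 of their group, except for Pgam2 in combination muscles, where 5_2 had 2365 FPKM and 5_5 had 2012 FPKM.

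The last steps were lower. Ldha (chr7:46841475-46855627, plus strand), which reduces pyruvate to lactate, ranged from 804 to 1060 FPKM with a median of 908 in combination muscles and from 791 to 1341 FPKM with a median of 861 in vehicle muscles. Pkm (pyruvate kinase, chr9:59656368-59679375, plus strand) ranged from 490 to 763 FPKM with a median of 561 in combination muscles and from 532 to 839 FPKM with a median of 600 in vehicle muscles. The gene-level value does not separate the M1 and M2 splice forms, and 15.3% of the exonic length of Pkm is shared with a predicted gene (Gm49759) on the same strand. The neighbouring second Aldoa model (ENSMUSG00000114515, chr7:126800790-126809108) was far weaker, at 47.1 ± 16.2 FPKM in combination and 59.7 ± 7.33 FPKM in vehicle muscles.

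Of the glycogen genes, Gys1 (muscle glycogen synthase, chr7:45434844-45456619, plus strand) ranged from 87.5 to 127 FPKM with a median of 109 in combination muscles and from 93.6 to 147 FPKM with a median of 112 in vehicle muscles. Pygm (muscle glycogen phosphorylase, chr19:6384399-6398459, plus strand) was nearly empty: 0 to 9 reads per muscle and 47 reads over the 12, at most 0.143 FPKM, where 3 reads correspond to 0.0444 to 0.0614 FPKM. Beside it, the table lists an unnamed gene model on the scaffold CHR_MG4249_PATCH, positions 6380663 to 6398466, described there by a carbohydrate phosphorylase domain. That model held 38.2 to 97.0 FPKM in combination muscles, with a median of 65.4, and 61.5 to 92.5 FPKM in vehicle muscles, with a median of 74.9. No symbol is given to any of the 96 such models on 32 scaffolds in the table, and whether reads of Pygm were assigned to this model was not tested. It is called the phosphorylase model here and is given beside the members, not as one of them.

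**Figure D1:**
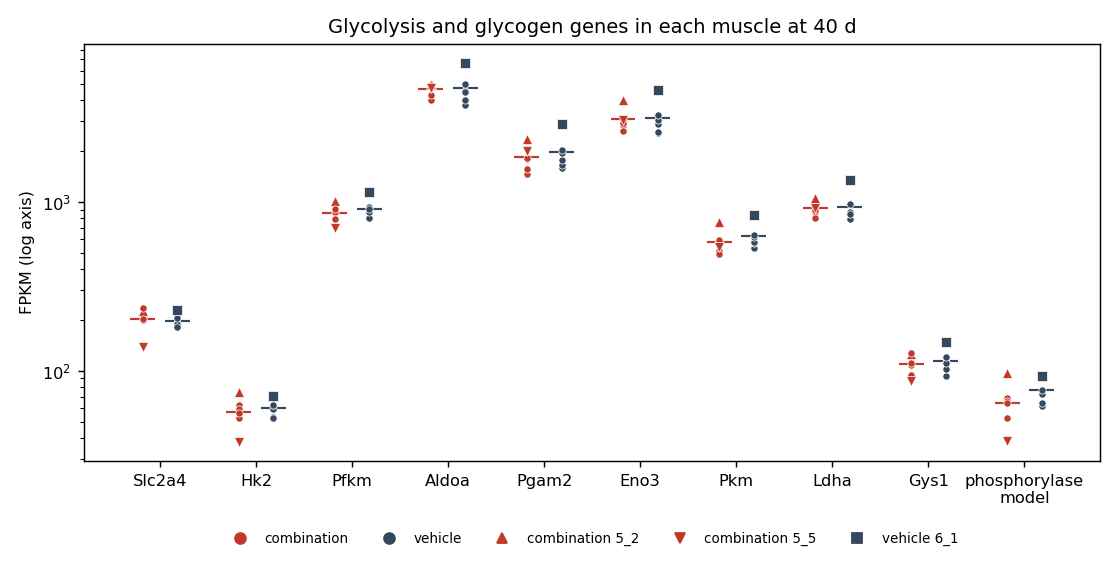
FPKM of 9 members and the phosphorylase model in each of the 12 muscles at 40 d, on a log axis, with combination muscles (red) left of vehicle muscles (blue) and a bar at each group's mean of 6. Vehicle 6_1 (square) is the highest of its group in 9 of 9 members, and combination 5_5 (downward triangle) the lowest muscle for Slc2a4, Hk2, Pfkm and Gys1.

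Per length, the levels fell in a nearly fixed order within each muscle. Mean levels over the 12 muscles ran from Aldoa (4703 FPKM) through Eno3 (3123), Pgam2 (1911), Ldha (927), Pfkm (888), Pkm (605), Slc2a4 (199) and Gys1 (112) to Hk2 (58.8). Each gene exceeded the next in 12 of 12 muscles except Ldha, which was above Pfkm in 6 of 12. The exception, Ldha and Pfkm, did not differ beyond the spread between muscles, with a ratio of means of 1.04.

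After 40 d of the combination, no member differed from vehicle beyond the spread between mice. By limma's moderated test on log2(FPKM + 1), 0 of 9 members were called, against 0% of the 11708 genes tested, and the adjusted p of each member was 0.999. At an unadjusted p under 0.05, 0 of 9 members passed, against 3.85% of all genes (220 or 1.88% higher and 231 or 1.97% lower). The groups overlapped in 9 of 9 members, where 0.256% of all genes did not overlap. Of the 9, 8 were lower in combination muscles with a median log2 fold change of −0.07, against 6014 of 11708 lower and a median of −0.00 over all genes. That direction rested on vehicle 6_1: without it, 6 of 9 members were higher and 3 lower, with a median of 0.02.

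The differences were small and their intervals bounded. The log2 fold change (combination over vehicle) was 0.03 (SE 0.13) for Slc2a4, −0.10 (SE 0.14) for Hk2, and −0.12 (SE 0.14) for Pkm. It was −0.01 (SE 0.16) for Aldoa and −0.07 (SE 0.13) for Gys1. Over the 9 members, the 95% intervals reached from 0.72-fold (Pgam2) to 1.27-fold (Eno3), so larger changes lay outside these intervals. The intervals are for single genes, whereas calls were adjusted over 11708 genes. They therefore do not mark the smallest change that could be called with 6 mice a group. The phosphorylase model differed by −0.28 (SE 0.19) and the second Aldoa model by −0.44 (SE 0.26), and the limma adjusted p was 0.999 for both. Without combination 5_5 and vehicle 6_1 together, 0 members were called and the median of the 9 was 0.07, the opposite sign. In that fit 1 of 9 members had a limma unadjusted p under 0.05, as did 399 genes higher and 500 lower of 11532 tested. Slc2a4 then had a log2 fold change of 0.18 and a limma adjusted p of 0.596.

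**Figure D2:**
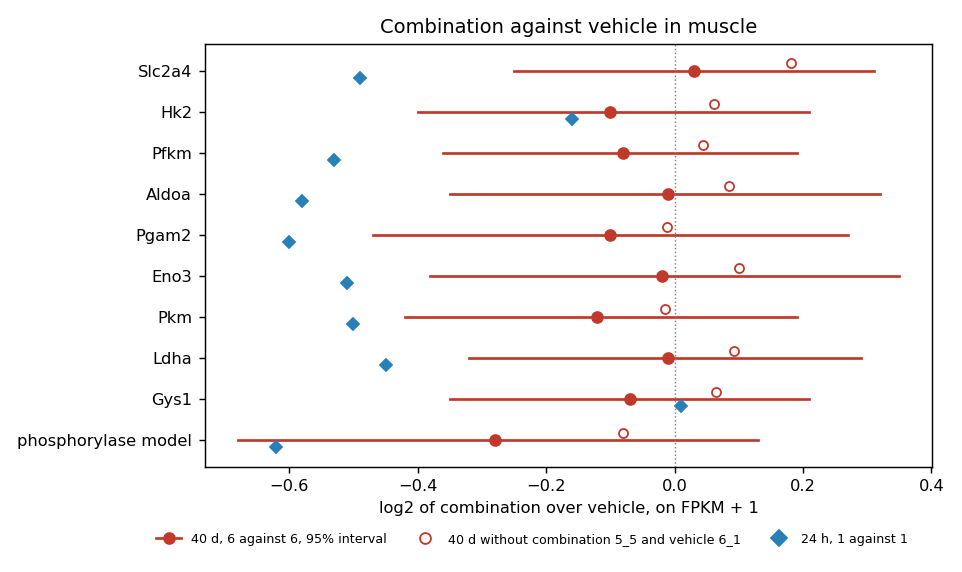
Log2 of combination over vehicle on FPKM + 1 for 9 members and the phosphorylase model: filled circles with 95% intervals for 6 against 6 muscles at 40 d, open circles for the same without combination 5_5 and vehicle 6_1, and diamonds for the single muscles at 24 h. Every interval at 40 d includes 0, and 8 of 9 members lie below 0 at 24 h, with Gys1 at 0.01.

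The phosphorylase model set against Gys1 did not separate the groups either. The log2 ratio of the phosphorylase model to Gys1 within a muscle averaged −0.78 ± 0.32 in combination muscles and −0.58 ± 0.16 in vehicle muscles (SD, n = 6 each). The difference of −0.21 had p = 0.186 in a two-sided exact permutation test, where 0.00216 is the smallest value that 6 against 6 allows. The lowest ratios were those of combination muscles 5_5 (−1.17), 5_4 (−1.05) and 5_3 (−0.97), while 5_2 (−0.38) had the highest of all.

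Among other genes of the pathways and their regulators 0 were called, though some fold changes were larger than those of the members. Of 23 other glycolysis genes tested, 8 were higher and 15 lower in combination muscles with a median log2 fold change of −0.04, and 0 were called by limma. The smallest unadjusted p in that list belonged to Pfkfb1, which makes the regulator fructose 2,6-bisphosphate, at 13.3 ± 4.50 FPKM in combination and 16.7 ± 3.60 FPKM in vehicle muscles (log2 fold change −0.34, SE 0.20, adjusted p 0.999, limma). Of 26 other glycogen genes, 10 were higher and 16 lower with a median of −0.05 and 0 called. Stbd1, which tethers glycogen to membranes, averaged 25.5 ± 8.01 FPKM in combination and 18.5 ± 3.31 FPKM in vehicle muscles (log2 fold change 0.41, SE 0.18, limma unadjusted p 0.0395, adjusted p 0.999). Of 22 regulators, 6 were higher and 16 lower with a median of −0.06 and 0 called; Mef2c, a transcription factor of muscle genes, had the smallest unadjusted p there (log2 fold change −0.30, SE 0.16, limma adjusted p 0.999).

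Over the 12 muscles, with each treatment's mean removed, the members went together. All 36 pairs of the 9 members had a positive Pearson r, from 0.27 to 0.95 with a median of 0.694, while the median over all pairs of tested genes was 0.001. With permutation within the treatments (100000 draws) and Benjamini-Hochberg adjustment over 36 pairs, 18 pairs passed 0.05 by Pearson's r and 11 by both r and Spearman's rho. In 10 of those 11, r stayed above 0.5 when the 2 muscles farthest from the median of the first gene were left out. Without vehicle 6_1 the median was 0.528 and 35 of 36 pairs were positive. Without 6_1 and 5_5 together it was 0.633, again with 35 positive.

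The tightest pairs joined steps of lower glycolysis. Eno3 and Pkm had r = 0.950 (permutation adjusted p 0.00216) and rho = 0.895 (adjusted p 0.00756), with r = 0.789 without 5_2 and 6_1. Pgam2 and Eno3, adjacent steps of the pathway, had r = 0.949 (permutation adjusted p 0.00216) and rho = 0.874 (adjusted p 0.0113), with r = 0.810 without the same 2 muscles. Aldoa was closest to Ldha, with r = 0.905 (permutation adjusted p 0.0057) and rho = 0.874 (adjusted p 0.0115), and r = 0.684 without 2_3 and 6_1. Eno3 also went with Ldha (r = 0.946, rho = 0.867). Within single treatments, the 10 pairs among these 5 genes had a median r of 0.68 in the 6 combination muscles and 0.97 in the 6 vehicle muscles.

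The genes of uptake, phosphorylation and storage also went together in pairs. Slc2a4 was closest to Gys1, with r = 0.791 (permutation adjusted p 0.00486) and rho = 0.818 (adjusted p 0.0115), and r = 0.811 without 5_3 and 5_5. Hk2 was closest to Pfkm, with r = 0.823 (permutation adjusted p 0.00761) and rho = 0.755 (adjusted p 0.0327), and r = 0.695 without 5_2 and 5_5. Arranged by role, the 6 pairs among Slc2a4, Hk2, Pfkm and Gys1 had a median r of 0.79, the 10 pairs among Aldoa, Pgam2, Eno3, Pkm and Ldha one of 0.87, and the 20 pairs across one of 0.55. With the 2 muscles farthest from the median of each pair's first gene left out, this order did not hold: the medians were 0.67, 0.58 and 0.78. The lowest pairs were Slc2a4 with Pgam2 and Hk2 with Aldoa, both at 0.27, and they reached 0.873 without 5_3 and 5_5 and 0.472 without 5_2 and 5_5. Pfkm had r from 0.62 to 0.83 to every other member. The arrangement by role depends on which muscles are kept, was made after the values were seen, and was not tested.

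Values across the roles lay below those within both roles in combination muscles but not in vehicle muscles. Among Slc2a4, Hk2, Pfkm and Gys1 the median r was 0.80 in the 6 combination muscles and 0.82 in the 6 vehicle muscles. Across the roles it was 0.28 in combination muscles and 0.88 in vehicle muscles, and over all 36 pairs it was 0.489 in combination muscles and 0.885 in vehicle muscles. Combination mouse 5_5 was lowest for Slc2a4, Hk2, Pfkm and Gys1 but near its group's median for Eno3 and Ldha and second highest for Pgam2, and without it the median over all pairs was 0.792. The difference between treatments in these correlations was not tested. The phosphorylase model was closest to Hk2 (r = 0.906, permutation adjusted p 0.00707 over its 9 pairs) and Pfkm (r = 0.885, permutation adjusted p 0.00063), with rho 0.846 for both. Its r was 0.794 with Slc2a4, 0.750 with Pkm, 0.694 with Gys1, 0.657 with Eno3, 0.583 with Ldha, 0.465 with Pgam2 and 0.406 with Aldoa.

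**Figure D3:**
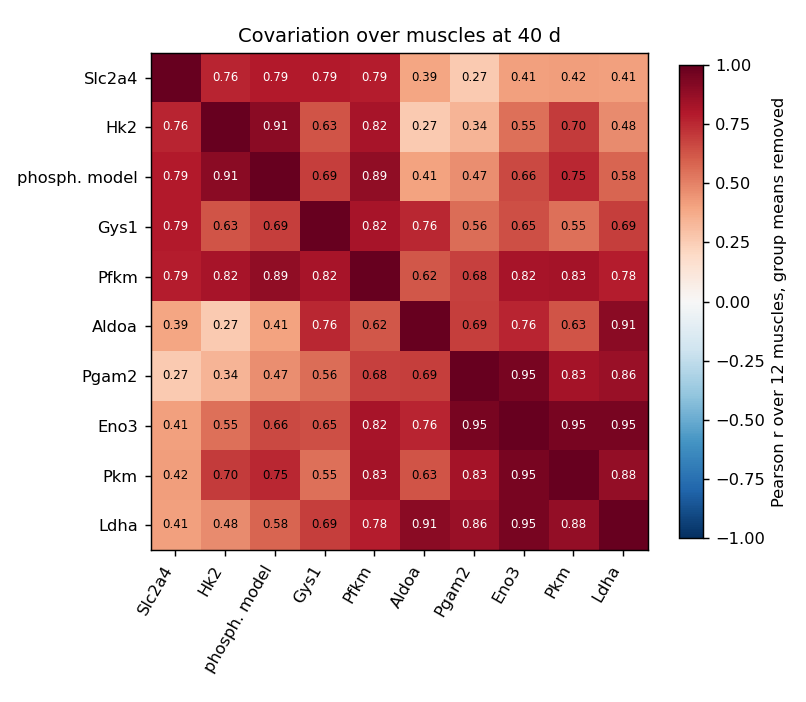
Pearson r between members, and with the phosphorylase model, over the 12 muscles at 40 d on log2(FPKM + 1) with each treatment's mean removed (colour and printed value). Every value is positive; the block from Aldoa to Ldha reaches 0.95, and Slc2a4 and Hk2 have their lowest values with Aldoa and Pgam2.

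Promoter sequence is shown for 3 of the genes that went together most tightly, from RefSeq annotation on GRCm38.p6, 250 bases before to 50 after the start, 5′ to 3′ on the gene's strand. Pgam2 is at chr11:5803747-5804046 (minus strand), Eno3 at chr11:70656926-70657225 (plus strand) and the first Ldha start at chr7:46845554-46845853 (plus strand). Capitals mark the E-box letters CANNTG, which muscle and metabolic basic helix-loop-helix factors bind, and, in Pgam2, a match to the MEF2 motif, which the muscle factor MEF2 binds.
Pgam2: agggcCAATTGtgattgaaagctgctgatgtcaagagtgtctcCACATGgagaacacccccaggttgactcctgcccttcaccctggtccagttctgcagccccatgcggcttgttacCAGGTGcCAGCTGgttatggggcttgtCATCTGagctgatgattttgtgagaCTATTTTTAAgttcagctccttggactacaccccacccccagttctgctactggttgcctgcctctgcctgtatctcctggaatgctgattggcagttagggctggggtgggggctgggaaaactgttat
Eno3: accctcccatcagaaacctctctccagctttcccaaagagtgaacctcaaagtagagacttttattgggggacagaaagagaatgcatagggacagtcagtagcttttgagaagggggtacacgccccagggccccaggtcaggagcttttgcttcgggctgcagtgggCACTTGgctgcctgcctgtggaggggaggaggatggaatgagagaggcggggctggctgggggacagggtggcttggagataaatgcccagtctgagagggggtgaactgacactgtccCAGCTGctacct
Ldha: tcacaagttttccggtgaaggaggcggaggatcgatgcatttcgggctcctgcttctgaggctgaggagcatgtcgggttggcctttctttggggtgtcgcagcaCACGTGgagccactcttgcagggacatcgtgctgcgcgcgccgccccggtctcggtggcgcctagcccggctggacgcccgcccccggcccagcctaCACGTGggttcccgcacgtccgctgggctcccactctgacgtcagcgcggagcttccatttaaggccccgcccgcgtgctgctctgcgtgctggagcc

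Of the 10 genes, 9 matched the promoter table with 16 starts, all but Slc2a4. Windows of neighbouring starts of a gene can overlap and share a match, so counts are given by gene as well. The shares over all promoters count promoters, not genes, so the counts by gene have no background beside them. CANNTG, on either strand, was in 13 of the 16 promoters (8 of 9 genes) and in 72.3% of all 32851 promoters of the same length. The MEF2 motif was in 1 of 16 (1 of 9 genes), the Pgam2 promoter shown, against 3.19% of all, and it did not overlap an E-box. ACGTG, the core of the hypoxia response element, was in 8 of 16 (6 of 9 genes) against 19.6% of all; in the Ldha promoter shown, 4 of its 5 matches lie within the capital E-boxes. CACCC, a KLF and Sp core, was in 14 of 16 (9 of 9 genes) against 57.5%, and TCAGGTT (MEF3) in 0 of 16 (0 of 9 genes) against 4.07%. These matches are descriptions of the letters in the window.

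The same muscles also differed in fibre genes and fat genes. The summed level of the 13 fast fibre genes went with 4 of the 5 members from aldolase on: r was 0.910 for Eno3 (permutation adjusted p 0.0115 over 72 relations; rho 0.839, adjusted p 0.0547; 0.732 without 5_2 and 6_1). It was 0.895 for Pgam2 (permutation adjusted p 0.0175; rho 0.734, adjusted p 0.193; 0.686 without the same 2). For Ldha it was 0.880 (permutation adjusted p 0.0175; rho 0.818, adjusted p 0.0547; 0.708 without them) and for Pkm 0.852 (permutation adjusted p 0.0334; rho 0.818, adjusted p 0.101; 0.531 without them). Aldoa did not pass (r = 0.757, permutation adjusted p 0.0631; rho 0.629, adjusted p 0.258; 0.475 without them). Slc2a4 had r = 0.118 with that sum over the 12 muscles, but 0.968 within the vehicle muscles and −0.352 within the combination muscles. Within the vehicle and then the combination muscles, r was 0.943 and −0.157 for Gys1, 0.894 and 0.133 for Pfkm, and 0.723 and 0.075 for Hk2. The difference between treatments in these values was not tested. Without 5_5 and 6_1 together, r over the remaining muscles was 0.446 for Slc2a4, 0.734 for Hk2, 0.742 for Pfkm and 0.429 for Gys1. It was then 0.534 for Aldoa and 0.8 to 0.917 for the other 4 members from aldolase on. The contrasts between members and between treatments thus depend on which muscles are kept. No relation passed by rho after adjustment.

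The summed level of 8 adipocyte genes went the other way in 9 of 9 members, with r from −0.837 to −0.492. It passed by Pearson's r for Pfkm, with r = −0.837 (permutation adjusted p 0.0319; rho −0.734, adjusted p 0.166; −0.805 without 5_2 and 5_5), and for Gys1, with r = −0.764 (permutation adjusted p 0.0382; rho −0.629, adjusted p 0.258; −0.789 without them). Fibroblast sums were negative with 9 of 9 members too, from −0.728 to −0.322, and slow fibre sums positive with 9 of 9, from 0.277 to 0.436, but none passed. Reads on genes had r from −0.528 to 0.089 and the mitochondrial share from 0.006 to 0.621, and none passed. The part of fibre and fat content in the members' covariation was not tested.

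Scaling moved these relations. When each muscle was rescaled to the same total, r with the fast fibre sum was 0.739 for Eno3, 0.712 for Pgam2, 0.591 for Pkm, 0.527 for Ldha and 0.084 for Aldoa, and it turned negative for Slc2a4 (−0.390), Hk2, Pfkm and Gys1. With the adipocyte sum it stayed negative for 9 of 9 members, at −0.350 for Pfkm and −0.398 for Gys1. The median over the 36 pairs was then 0.482, with 34 of them positive.

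**Figure D4:**
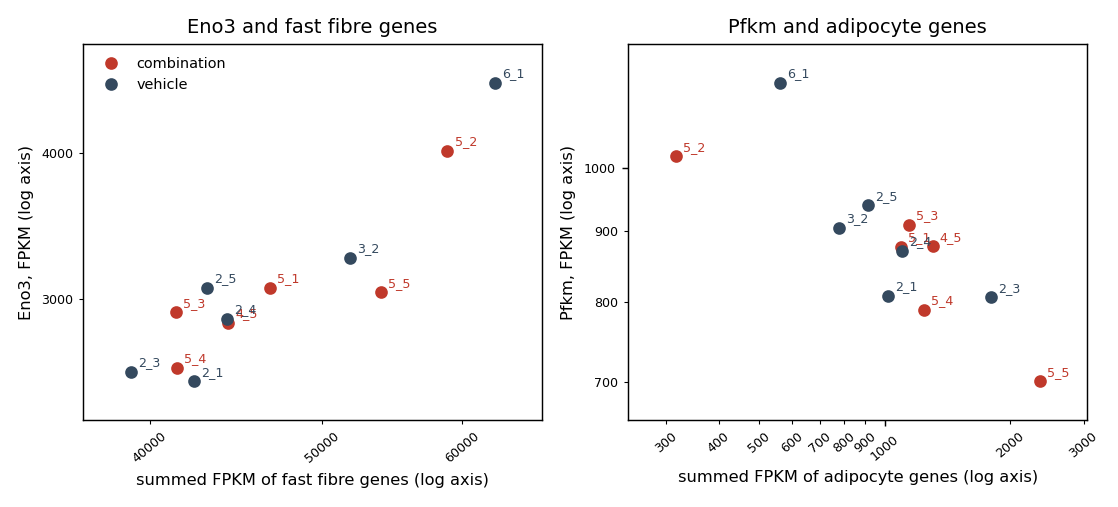
Eno3 against the summed FPKM of fast fibre genes (left) and Pfkm against that of adipocyte genes (right), 1 point per muscle with its mouse number, both axes logarithmic, combination in red and vehicle in blue. Muscles 5_2 and 6_1 are high in Eno3 and fast fibre genes, and 5_5 has the highest adipocyte sum and the lowest Pfkm.

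Most other isoforms of the members' steps ran opposite to them over the muscles. Each tested gene was compared with the mean of the 9 standardized members over the 12 muscles, a mean that holds the members themselves, whose r was 0.69 to 0.947. Of 12 other isoforms at the members' steps, 10 were negative and 2 positive, namely Ldhb (0.725) and Slc2a12 (0.602). The phosphoglycerate mutase Pgam1 had −0.942 where Pgam2 had 0.816. Eno1 had −0.694 where Eno3 had 0.929, Pfkp −0.848 and Pfkl −0.535 where Pfkm had 0.947, and the transporter Slc2a1 −0.668 where Slc2a4 had 0.690. The phosphorylases Pygl (−0.920) and Pygb (−0.816) contrasted with the phosphorylase model (0.810).

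These isoforms were weak in muscle per length: Pgam1 averaged 20.8 FPKM, Eno1 37.2, Pfkp 2.08, Pygl 2.76 and Pygb 7.73. Most of the signs held under the settings tried. Of the 12, 8 (Slc2a1, Slc2a3, Pfkl, Pfkp, Pgam1, Eno1, Pygb and Pygl) were negative in every setting. The other settings were without 5_5 and 6_1, within the combination muscles, within the vehicle muscles and after rescaling to equal totals. There 9 of 9 members stayed positive, but the mean holds the members themselves. Rescaling brought Pgam1 to −0.518 and Pygl to −0.438. Adipocyte genes lay on the same side as these isoforms, with a median r of −0.82 over 8 genes, and fast fibre genes on the members' side, with a median of 0.65 over 12. The median over all genes was 0.065, and it lay between −0.056 and 0.117 under the other settings. The share of all genes that were negative in every setting was not counted, so the 8 of 12 has no background beside it.

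Genes outside the members were ranked by the same r over 12 muscles. Among genes that averaged 5 FPKM or more, the highest were Pdk2 (0.962), a kinase that restrains pyruvate dehydrogenase, Klhdc2 (0.956), Gpi1 (0.955), the isomerase between hexokinase and phosphofructokinase, Sdha (0.955), a subunit of succinate dehydrogenase, and Mfn1 (0.954), a mitochondrial fusion protein. The most opposite were Scd1 (−0.967), the fatty acid desaturase, G6pdx (−0.964), which sends glucose 6-phosphate into the pentose phosphate pathway, Fmr1 (−0.956), Rab3d (−0.956) and Adamts2 (−0.953). Of the remaining glycolytic steps, Tpi1 (0.924) and Pgk1 (0.907) also went with the members, and Gapdh, the step between those, had −0.321. Over all genes, 2.71% had an r above 0.8 and 3.6% one below −0.8, and after rescaling to equal totals Scd1 had −0.545 and Pdk2 0.821.

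**Figure D5:**
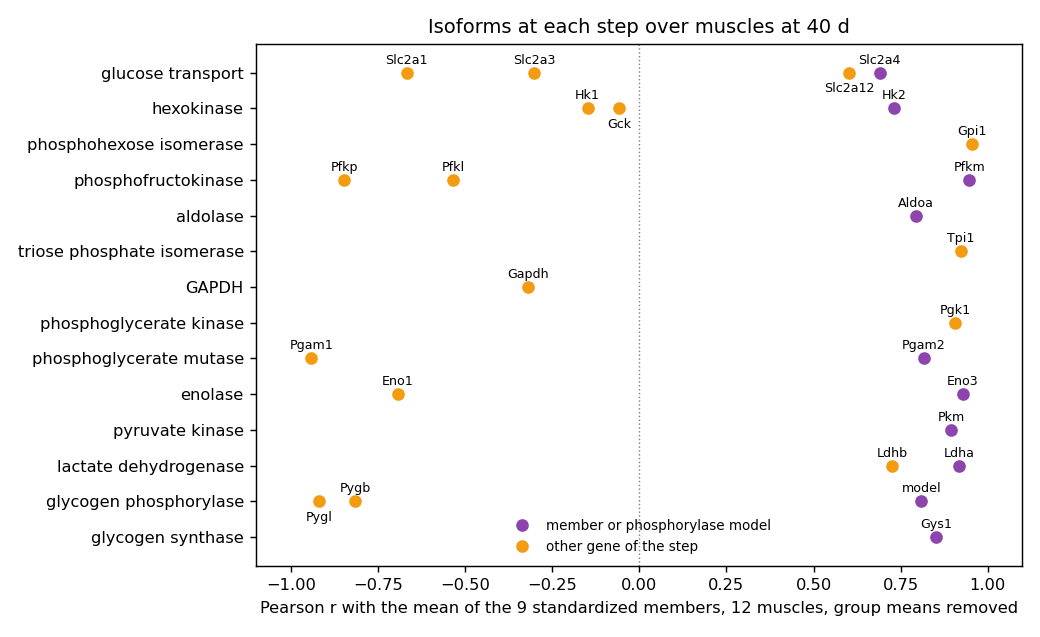
Pearson r of each gene with the mean of the 9 standardized members over 12 muscles at 40 d, treatment means removed, arranged by pathway step; purple marks members and the phosphorylase model, orange the other genes of the step. Members, which that mean holds, lie at 0.69 or above, and Pgam1, Pygl, Pfkp, Pygb, Eno1 and Slc2a1 lie between −0.942 and −0.668.

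At 24 h there was 1 muscle per treatment, so the values compare those 2 libraries and carry no test. Of the 9 members, 8 were lower in the combination muscle, with a median log2 ratio of −0.50, against −0.02 over the 12262 genes that averaged 1 FPKM or more, of which 6545 were lower. Aldoa had 3581 FPKM in the combination muscle and 5339 FPKM in the vehicle muscle (log2 ratio −0.58), and Eno3 had 2401 FPKM in the combination and 3413 FPKM in the vehicle muscle (−0.51). Pgam2, at 1417 FPKM in the combination muscle and 2150 FPKM in the vehicle muscle, was the 1 member lower by more than 1.5-fold (log2 ratio −0.60), where 4.71% of genes were lower by that much, and 0 members were higher by 1.5-fold, where 6.61% of genes were. After rescaling to equal totals, the log2 ratio of Pgam2 was −0.582, just short of 1.5-fold. Slc2a4 had 146 FPKM in the combination and 205 FPKM in the vehicle muscle (−0.49).

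Hexokinase and glycogen synthase differed less. Hk2 had 52.5 FPKM in the combination muscle and 58.5 FPKM in the vehicle muscle (log2 ratio −0.16), and Gys1 had 92.2 FPKM in the combination and 91.3 FPKM in the vehicle muscle (0.01). Pygm held 3 reads in the combination and 2 in the vehicle muscle, and the phosphorylase model of that table had 53.1 FPKM in the combination and 82.2 FPKM in the vehicle muscle (−0.62).

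Genes of fibres and other cell types differed between the same 2 libraries. Fast fibre genes were lower in the combination muscle in 10 of 12 cases (median log2 ratio −0.76), slow fibre genes higher in 7 of 7 (0.86) and adipocyte genes higher in 8 of 8 (1.14). Hepatocyte genes were lower in 5 of 5 (−3.42), the largest median shift of the lists examined, and Schwann cell genes higher in 4 of 4 (0.53). Mitochondrial genes took 10.97% of reads in the combination and 6.94% in the vehicle muscle. Their part in the members' values was not tested. Among other glycolysis genes, Ldhb, the lactate dehydrogenase subunit of slow fibres and heart, was higher, at 152 FPKM in the combination and 59.1 FPKM in the vehicle muscle (log2 ratio 1.35). Among other glycogen genes Pygb was higher (0.88) and the phosphorylase kinase subunit Phkg1 lower (−0.83), and among regulators Prkag3, an AMPK subunit of glycolytic muscle, was lower (−1.25). In the liver libraries of the same table, Slc2a4 was low (1.61 FPKM with the combination and 0.834 FPKM with vehicle), as was Eno3 (3.80 FPKM with the combination and 4.08 FPKM with vehicle), whereas Ldha reached 433 FPKM with the combination and 327 with vehicle.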

How the data were processed

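Trizol RNA was turned into libraries with an NEBNext Ultra kit, per the labels' protocols. The authors deposited FPKM values, fragments per kilobase of gene and per 1 M mapped fragments, per the file headers. The submitters' processing notes name the builds GRCm38 and mm10. The sources used here name no aligner, counter or strand setting, so overlapping genes may share reads. For 100% of values per library, FPKM was a whole number of reads within 0.01, and reads were recovered with the deposited gene lengths. The 2 tables were treated separately. Libraries of a group were no duplicates (chi-square per degree of freedom 17.87 to 116.04), and the labels number the mice.

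Genes with at least 1 FPKM in 6 of 12 muscles were tested two-sided with limma 3.58.1 in R 4.3.3 (moderated, with a mean-variance trend) on log2(FPKM + 1), with Benjamini-Hochberg adjustment over 11708 genes at 0.05. A fold change on that scale understates the change of low genes. Correlations, exact tests and figures used Python 3.11.15, NumPy 2.4.6, SciPy 1.17.1, pandas 2.3.3 and matplotlib 3.10.9. The fits were tested on simulated data. Depth (16.1 to 19.9 M reads) leaves 4005 or more reads per muscle in each of the 9 members, so the number of mice limits precision.

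The members, the lists and the alternatives (pseudocount, filter, scaling, test, leaving out muscles) were chosen with earlier results of these data known. Named are all members, the 3 genes of each list with the smallest p or, at 24 h, the largest ratio, and the 5 genes most like and most unlike the members; not all of these are printed. The planned ratio of Pygm to Gys1 was replaced by that of the phosphorylase model, and pairs with Pygm were left out, because its row held at most 9 reads.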

Additional observations from a re-analysis of the deposited data

Results flagged for a closer look

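In groups of 6 muscles at 40 d, single muscles stood far from the others of their treatment: the gap to the nearest one, as a share of the group's range, exceeded Dixon's 95% critical value for 6 values. Of 22 groups examined, 6 did so. Chance alone gives about 1 in 20 for a single group, but these groups share muscles and the members go together over them. The 6 are therefore not separate events and were not tested against that rate. Vehicle mouse 6_1 was high in 4 of the 6, with 2893 FPKM for Pgam2 (next 2031), 4597 FPKM for Eno3 (next 3253), 839.4 FPKM for Pkm (next 640.8) and 1341 FPKM for Ldha (next 968.9). That muscle also had the largest summed FPKM over all genes, 470508, and these values were not rescaled to equal totals. Combination mouse 5_2 was high for Eno3, with 4020 FPKM (next 3067). The second Aldoa model was low in combination mouse 5_5, with 15.86 FPKM (next 46.08).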

How the results depend on the processing

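No member was called in any of the 24 limma fits. Of 253 member and model fold changes under the alternatives, 31 had the opposite sign, none of them past the threshold; for Aldoa and Ldha this was 8 of 23 alternatives each and for Pkm 0. The number of genes called higher over the whole table, 0, became 2 after rescaling to equal totals, 1 with quantile normalization, 2 after rescaling without mitochondrial and the 10 most abundant genes, and 1 with array weights. It was 0 to 1 when each muscle was left out in turn, the 1 without vehicle 6_1. No gene was called lower. limma voom on the recovered reads called 0 genes (212 higher and 222 lower at an unadjusted p under 0.05). The median correlation of member pairs, 0.694, was 0.482 after rescaling to equal totals, 0.382 with quantile normalization (29 of 36 pairs positive, lowest −0.695) and 0.489 in the combination muscles alone, and ranged from 0.528 to 0.792 when each muscle was left out. The cause was not tested. Leaving out 6_1 and 5_5 together and the phosphorylase model's ratio were added after seeing the data. That ratio's difference ranged from −0.288 to −0.129 without each muscle. The ratios at 24 h kept their sign with both other pseudocounts and after rescaling. No paired analysis was possible because combination and vehicle mice share no number at 40 d, and at 24 h there was 1 muscle each.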

Other observations

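Gapdh, the glycolytic step between Tpi1 and Pgk1, was far more variable than the members: 4.50 to 125 FPKM over the 12 muscles at 40 d, with 60.3 ± 48.6 FPKM in combination and 40.5 ± 42.7 FPKM in vehicle muscles (SD, n = 6 each). At 24 h it was 3.74 FPKM in the combination muscle and 111.5 FPKM in the vehicle muscle. Gapdh has many near-identical copies in the mouse genome, so how its reads were counted is uncertain, and its r with the members was −0.321 over 12 muscles.

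Another enzyme of glycogen metabolism was listed as Pygm was. The row Pgm2, whose symbol stands for a phosphoglucomutase, averaged 0.0452 FPKM over the 12 muscles at 40 d, while an unnamed model on the scaffold CHR_MG3618_PATCH, with phosphoglucomutase domains in its description, averaged 12.9 FPKM (4.22 to 20.7). Whether reads of Pgm2 were assigned to that model was not tested.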
